A study of Mus musculus with 24 samples.

Results

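The endoplasmic reticulum folding and unfolded protein response genes were followed in mouse hippocampus, in whole-tissue RNA and in RNA bound to ribosomes of excitatory neurons. They were given as a list of 38 gene symbols written in capitals, from HSPA5, HSP90B1, CALR and XBP1 to SEC61A1 and SPCS3, and a gene was kept when its mean over the 24 libraries was 1 CPM or more. CPM, a count scaled to a common library total, was computed by library totals for this rule and after TMM scaling over all libraries for the levels printed here. Of the 38 listed genes, 37 met the rule, out of 51733 genes in the table. Sec61b, a small subunit of the protein-conducting channel, did not, with counts of 0 to 4 a library. How reads were assigned to its row is not given, so these counts do not show how strongly Sec61b was expressed. The rule uses the mean level only and no difference between groups. The row of each listed gene names 1 transcript, and whether reads of its other transcripts were counted is not given. Spliced and unspliced Xbp1 were not told apart.

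All mice were adult C57BL/6 males of 2 to 3 months in which Cre recombinase was driven by the CaMKIIα promoter, a promoter of excitatory forebrain neurons, and all carried RiboTag, an epitope-tagged ribosomal protein Rpl22 that Cre switches on. Conditional knock-in (cKI) mice were eIF2α A/A;fTg+ with CaMKIIα-Cre: both eIF2α alleles hold alanine in place of the serine that stress kinases phosphorylate, and a floxed transgene of normal eIF2α is removed where Cre acts. Control mice were CaMKIIα-Cre+ without a stated knock-in allele. Tissue came either from naive mice or from mice conditioned 1 h earlier with a tone and a foot shock. The sources used here do not say whether the weak or the strong shock protocol was given to these mice. Hippocampi of 1 mouse were pooled, and each of the 12 mice gave 1 input library (whole lysate) and 1 immunoprecipitate library (anti-HA pulldown of tagged ribosomes). Genotype, training state and fraction gave 8 groups of 3 libraries. Because Cre follows the CaMKIIα promoter, loss of the normal transgene and the tag are limited to cells where that promoter is active. The alanine alleles themselves are in every cell of cKI mice, and inputs hold every cell type of the tissue.

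The endoplasmic reticulum is where secreted and membrane proteins are threaded across a membrane, folded, bonded by disulfides, trimmed of sugars and, when they fail, sent back to the cytosol for degradation. When unfolded protein builds up, 3 membrane sensors respond. IRE1α, the product of Ern1, splices Xbp1 RNA into a form that encodes an active transcription factor; ATF6 is cut to release one; and PERK phosphorylates eIF2α, which lowers general translation and raises translation of ATF4. XBP1 and ATF6 raise transcription of chaperones and degradation genes through promoter sequences known as endoplasmic reticulum stress elements. The knock-in removes the phosphorylation site of the PERK branch and leaves the other branches' genes in place. In neurons the same machinery makes receptors, channels and secreted peptides.

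Library totals ran from 28.8 to 37.7 M counts in inputs and from 30.6 to 43.5 M in immunoprecipitates. The share of a library's counts in the 37 genes was 0.399 to 0.466% for inputs and 0.401 to 0.492% for immunoprecipitates. Naive control replicate 2 lay farthest from its group among inputs, and naive cKI replicate 2 among immunoprecipitates, with median absolute deviations over all genes of 0.172 and 0.181 on the log2 scale. Sequencing lanes did not run evenly through the groups. All cKI inputs and naive control inputs 1 and 2 were in lane 4, and naive control input 3 and the control inputs taken at 1 h were in lane 5. All control immunoprecipitates were in lane 6, and the cKI immunoprecipitates were in lane 5 apart from replicates 2 and 3 at 1 h. The targeted gene Eif2s1 (eIF2α) was read in every group, at 29.9 to 40.8 CPM in inputs and 44.0 to 55.9 CPM in immunoprecipitates. Averaged over training states, Eif2s1 was higher in cKI inputs by 0.28 on the log2 scale (edgeR, adjusted p = 0.0024). In cKI immunoprecipitates it was higher by 0.22 (edgeR, adjusted p = 0.032). Mutant, normal and transgene copies are summed in these counts, so the level does not show which copies were read and does not check the label. In immunoprecipitates against inputs, Camk2a of excitatory neurons was higher by 0.96 on the log2 scale and Rpl22 by 2.13, and Gad1 of inhibitory neurons, Gfap of astrocytes and Mbp of oligodendrocytes were lower, at -1.51, -3.29 and -3.43 (edgeR, adjusted p of 9.1e-11 or less for each).

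Promoter sequence was read first, since the stress element is how this set of genes is best known. RefSeq windows of the GRCm38.p6 build covering the 250 bases before the start site were found for 30 of the 37 genes. The element was searched on both strands as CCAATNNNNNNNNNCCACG. It was present in 8 of the 30 windows (26.7%) and in 35 of 27025 windows of all genes (0.13%). With at most 1 mismatch it was present in 13 (43.3%) against 408 of all genes (1.51%). Since these genes are best known by this element, the higher shares among them describe the list and are no independent result. The shorter form, searched as ATTGGNCCACG, was present in the Herpud1 window and in 10 windows of all genes (0.037%). The 8 exact matches were in Hspa5, Hsp90b1, Dnajc3, Creld2, Calr, Canx, Pdia6 and Syvn1, and the windows of Pdia3, Pdia4, Sel1l, Derl2 and Sec61g held 1 mismatch. Xbp1 and Sdf2l1 held neither form, and no window was at hand for Manf, Hyou1, Atf6, Derl1, Sec61a1, Ssr2 and Spcs3. The lines that follow give matches, with up to 20 bases on each side, for genes whose levels are set against each other in the next paragraphs. They are Hspa5, Dnajc3, Herpud1 and Pdia4, and then Hsp90b1, Calr, Canx and Pdia6. All lines are exact matches except that of Pdia4. A further Hsp90b1 match with 1 mismatch, 172 to 154 bases before the start, is not printed. Each is written 5′ to 3′ on the strand of its gene, and capitals mark the bases that match the searched letters. On the opposite strand the element reads from its other end, as in Pdia4, Calr and the second Hsp90b1 line.
Hspa5: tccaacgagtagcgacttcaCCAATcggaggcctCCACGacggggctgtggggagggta
Dnajc3: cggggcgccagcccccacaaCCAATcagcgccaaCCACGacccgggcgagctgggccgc
Herpud1: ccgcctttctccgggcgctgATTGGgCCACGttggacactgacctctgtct
Pdia4: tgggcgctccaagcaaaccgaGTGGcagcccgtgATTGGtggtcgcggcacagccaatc
Hsp90b1: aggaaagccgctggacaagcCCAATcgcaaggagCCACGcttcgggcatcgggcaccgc
Hsp90b1: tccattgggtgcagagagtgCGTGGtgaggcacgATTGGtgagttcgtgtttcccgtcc
Calr: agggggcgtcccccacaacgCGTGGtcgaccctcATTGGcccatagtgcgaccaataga
Canx: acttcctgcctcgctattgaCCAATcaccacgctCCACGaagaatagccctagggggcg
Pdia6: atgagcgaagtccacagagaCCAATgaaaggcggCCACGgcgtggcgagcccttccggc
In GRCm38.p6 these stretches, all before the annotated start of transcription, are chr2:34772005-34772063 (+ strand, Hspa5), chr14:118937807-118937865 (+ strand, Dnajc3), chr8:94386357-94386407 (+ strand, Herpud1), chr6:47813582-47813640 (- strand, Pdia4), chr10:86705618-86705676 (- strand, Hsp90b1), chr10:86705513-86705571 (- strand, Hsp90b1), chr8:84847055-84847113 (- strand, Calr), chr11:50325780-50325838 (- strand, Canx) and chr12:17266471-17266529 (+ strand, Pdia6).

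In whole hippocampus of control mice, 6 of the 37 genes rose 1 h after conditioning and 0 fell: Xbp1, Pdia4, Sdf2l1, Manf, Herpud1 and Dnajc3. Of all 17232 genes tested, 0.737% were called in either direction and 0.412% were called higher (edgeR's quasi-likelihood test, Benjamini-Hochberg adjusted p under 0.05, 3 mice a group). The median log2 fold change was 0.13 over the 37 genes and -0.002 over all genes, and 30 of the 37 were above 0. DESeq2's Wald test called 9 of 37 and 1.78% of all genes, and 15 of 37 had an unadjusted p under 0.05, against 11.7% of all genes. By role, 3 of 10 chaperones and co-factors were called, 1 of 4 disulfide isomerases, Xbp1 alone of the 4 sensors and transcription factors, 1 of 8 degradation genes, 0 of 2 lectin chaperones and 0 of 9 genes of entry and signal peptide removal. The plot of conditioning responses shows that the larger responses were spread over roles, with fold changes from -0.12 (Ssr2) to 0.56 (Sdf2l1).

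**Figure D1:**
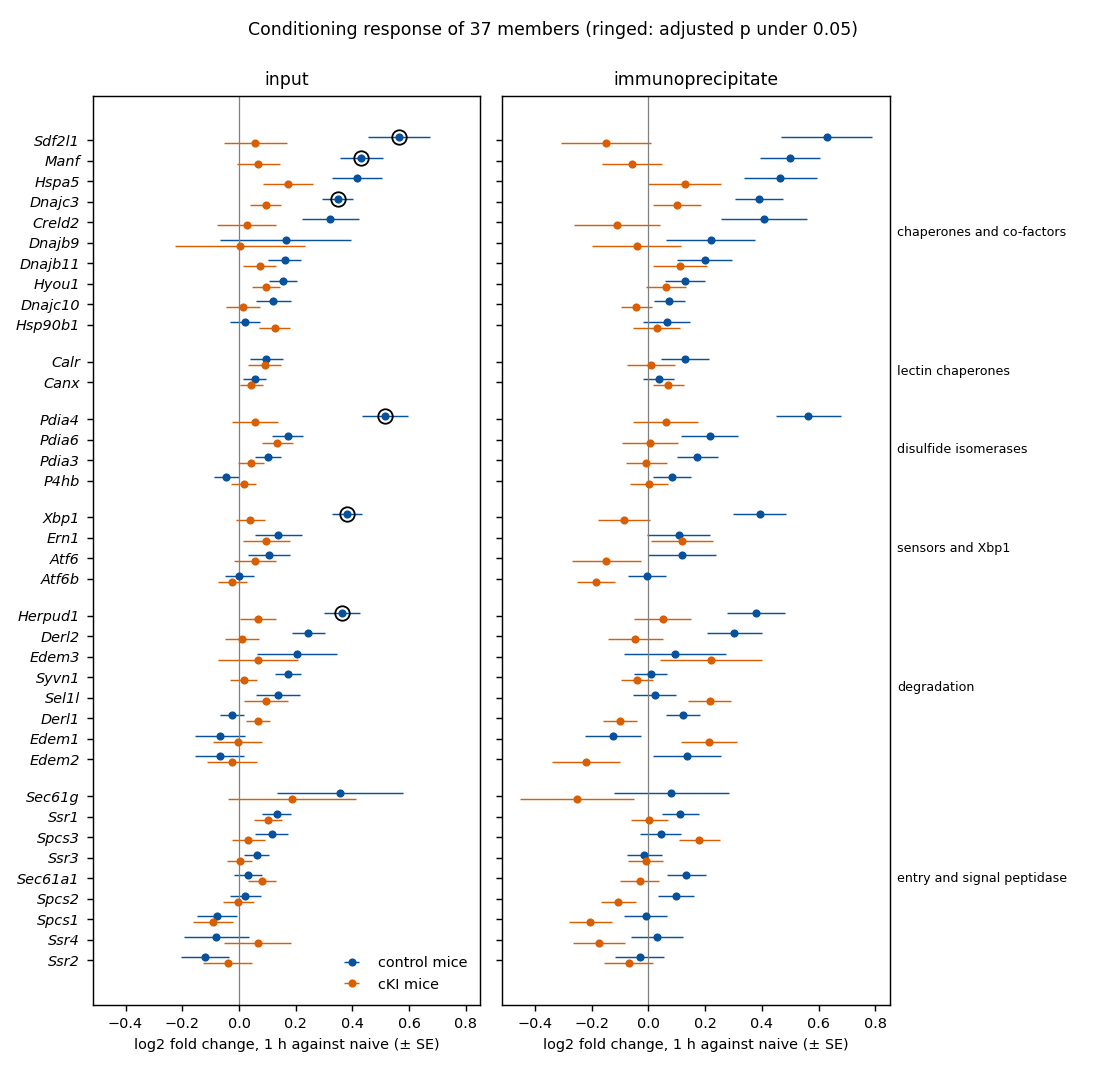
Log2 fold change (± SE, n = 3 mice against 3) at 1 h against naive for the 37 genes, ordered by role, in control mice (blue) and cKI mice (orange), with inputs on the left and immunoprecipitates on the right. Rings mark an adjusted p under 0.05, which only 6 genes reached, all in control inputs.

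Xbp1, the transcription factor that IRE1α activates by splicing, was at 69.6, 76.0 and 68.1 CPM in naive control inputs and at 86.4, 95.6 and 91.9 CPM at 1 h. The groups did not overlap. The log2 fold change was 0.38 (SE 0.05, adjusted p = 0.0039). Pdia4, a disulfide isomerase, was at 55.4, 53.0 and 49.5 CPM in naive and 62.8, 81.5 and 77.9 CPM in conditioned controls, a log2 fold change of 0.51 (SE 0.08, adjusted p = 0.0093). Here too every conditioned library was above every naive one, and replicate 1 at 1 h was the lowest of its group.

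Sdf2l1, Manf and Dnajc3, which act with HSPA5 in the lumen, rose with them. Sdf2l1, a partner of HSPA5 and its co-chaperones, was at 16.4, 16.4 and 13.8 CPM in naive controls and 18.3, 25.1 and 24.4 CPM at 1 h, with a log2 fold change of 0.56 (SE 0.11, adjusted p = 0.028). Manf, a neurotrophic factor that binds HSPA5, was at 43.6, 48.6 and 45.2 CPM and then 52.8, 64.9 and 64.5 CPM, 0.43 (SE 0.08, adjusted p = 0.016). Dnajc3, the co-chaperone P58IPK, was at 74.5, 71.9 and 73.3 CPM and then 85.6, 93.2 and 96.8 CPM, 0.35 (SE 0.06, adjusted p = 0.0093). In each of them the conditioned libraries lay above the naive ones, with replicate 1 at 1 h closest to the naive range. Herpud1, a membrane scaffold of the degradation complex, was at 42.2, 48.6 and 44.5 CPM and then 51.3, 61.8 and 58.0 CPM, 0.36 (SE 0.06, adjusted p = 0.016), again without overlap.

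Hspa5 (BiP), the main chaperone of the lumen, did not pass the threshold. It was at 322, 355 and 315 CPM in naive and 368, 492 and 444 CPM in conditioned controls, with a log2 fold change of 0.42 (SE 0.09, adjusted p = 0.055). Its groups did not overlap, and replicate 1 at 1 h was the lowest of the conditioned libraries. Derl2, a channel subunit of degradation, had 0.24 (SE 0.06, adjusted p = 0.085), Syvn1, the ubiquitin ligase HRD1, 0.17 (SE 0.05, adjusted p = 0.13), and Creld2, a luminal protein with disulfide isomerase activity, 0.32 (SE 0.10, adjusted p = 0.21). Hsp90b1 (GRP94), the luminal HSP90, was at 387, 399 and 363 CPM and then 355, 398 and 395 CPM, and its fold change of 0.02 (SE 0.05, adjusted p = 0.9) was close to 0. The lectin chaperones Calr and Canx, which hold glycoproteins during folding, had 0.10 and 0.06. The sensors themselves had 0.11 (Atf6), 0.00 (Atf6b) and 0.14 (Ern1). Atf6 was at 92.8, 77.1 and 96.4 CPM in naive and 95.9, 93.6 and 93.5 CPM in conditioned control inputs, and Ern1 at 16.3, 14.1 and 14.9 CPM and 16.4, 15.8 and 17.0 CPM, with overlapping groups for both.

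**Figure D2:**
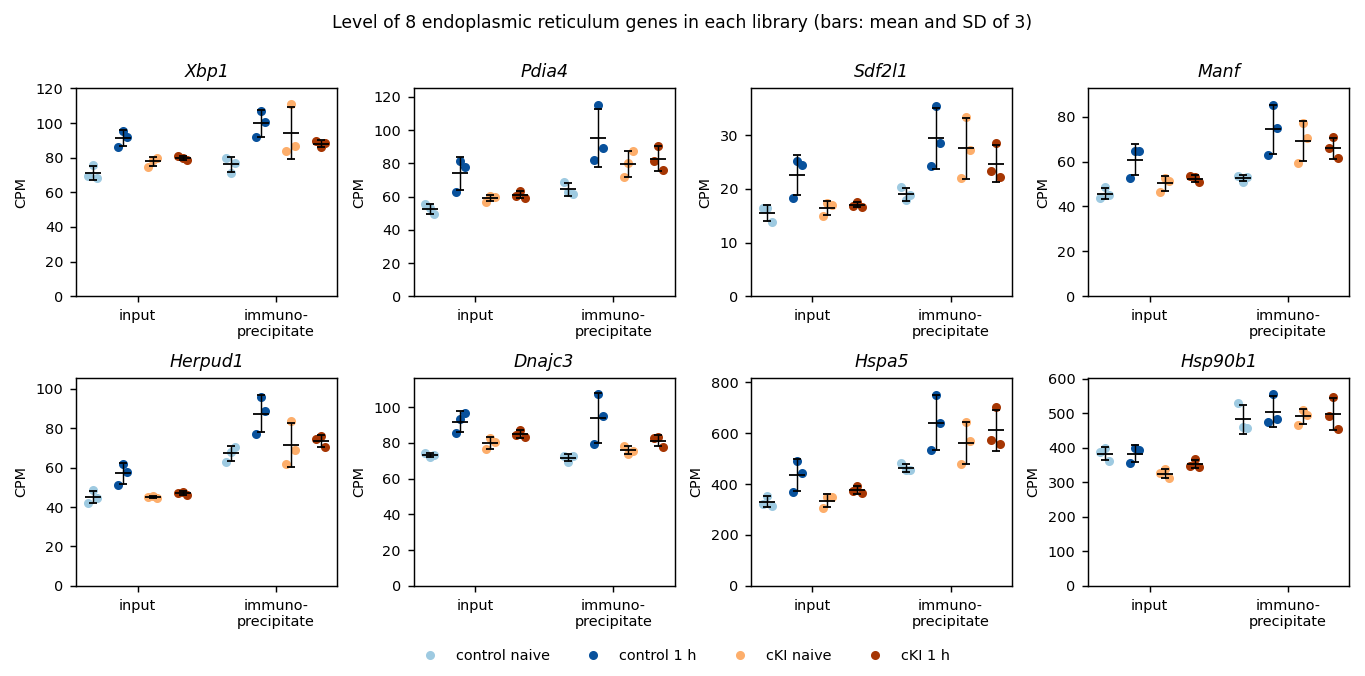
CPM of 8 genes in each library (points) with the mean and SD of 3 libraries, for inputs on the left and immunoprecipitates on the right of each panel, with axes from 0. In 7 panels the control libraries at 1 h (dark blue) lie above the naive control libraries (light blue) in both fractions, and in the Hsp90b1 panel they overlap.

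In 11 of the 37 genes every conditioned control input was above every naive one, against 6.25% of all genes tested. These were the 6 called genes with Hspa5, Derl2, Syvn1, Hyou1, a large chaperone that exchanges nucleotide on HSPA5, and Ssr1, a subunit of the translocon-associated complex. Set against the promoter sequences, 2 of the 9 genes with an exact match of either form were called, Dnajc3 and Herpud1. Among the other exact matches, Hsp90b1, Calr, Canx and Pdia6 had fold changes of 0.02, 0.10, 0.06 and 0.17. Hspa5 and Creld2 had larger ones and Syvn1 one close to that of Pdia6, all above 0 and given above. Pdia4, whose window holds 1 mismatch, and Xbp1 and Sdf2l1, whose windows hold no match, were called. Manf, also called, had no window to search. The match is a description of letters and was not tested against the response.

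Single libraries moved the count of calls. It was 1 without control replicate 3 at 1 h, where Xbp1 alone was called, and 3 without control replicate 2 at 1 h or naive control replicate 1. Over the 12 omissions Xbp1 was called in 12, Pdia4 and Dnajc3 in 11, Manf and Herpud1 in 9, Sdf2l1 in 6 and Hspa5 in 2. With lane as a covariate 0 of the 37 genes were called, at log2 fold changes of 0.43 (adjusted p = 0.065) for Xbp1, 0.59 (adjusted p = 0.16) for Pdia4 and 0.72 (adjusted p = 0.2) for Sdf2l1. Naive control replicate 3 shares lane 5 with the 3 conditioned control inputs, and naive control replicates 1 and 2 were in lane 4. In control inputs lane and training state are thus separated by that library alone. Oligodendrocyte markers moved in the same comparison. Of 10 markers, 8 were lower at 1 h in control inputs (edgeR, adjusted p under 0.05), the median log2 fold change was -0.43, and their summed level was 5609 to 6031 CPM in naive and 4224 to 4872 CPM in conditioned control inputs, with 0 markers at 0. Of 10 vessel markers 2 were called lower. All 10 choroid plexus markers were above 0, with a median of 0.63 and 0 called. The part of these lists in the response was not tested, and in bulk tissue fewer cells of a type and less RNA per cell cannot be told apart.

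In cKI inputs 0 of the 37 genes were called after conditioning by edgeR, against 0.0174% of all genes. Unadjusted p was under 0.05 for 2 genes, a share close to the 5.27% of all genes, and DESeq2's Wald test called 0 (0.133% of all genes). The median log2 fold change was 0.06. Xbp1 was at 74.7, 78.9 and 79.9 CPM in naive and 80.8, 79.6 and 78.7 CPM in conditioned cKI inputs, a log2 fold change of 0.04, and the groups overlapped. Pdia4 was at 56.7, 60.1 and 59.9 CPM and 60.3, 63.5 and 59.4 CPM, 0.06. Sdf2l1 was at 14.9, 17.4 and 16.9 CPM and 16.9, 17.6 and 16.6 CPM, 0.06. These 2 genes overlapped as well. Manf had 0.07, Herpud1 0.07 and Dnajc3 0.09. Hspa5 was at 307, 349 and 349.5 CPM and 372, 393 and 363 CPM, 0.17, without overlap. In all, 11 of 37 genes had every conditioned cKI input above every naive one, against 6.29% of all genes tested. They included Herpud1, Dnajc3 and Hspa5, and also Hsp90b1, Atf6 and Pdia6, but neither Xbp1 nor Pdia4. In the same contrast oligodendrocyte markers had a median of -0.22, with 8 of 10 at an unadjusted p under 0.05. Choroid plexus markers had a median of 1.68, with 2 of 10 at that level. By edgeR 0 were called in either list, and their part in the response was not tested.

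The difference between genotypes in the response was tested as an interaction, and 0 of the 37 genes passed in inputs by edgeR, against 0.0348% of all genes. Unadjusted p was under 0.05 for 8 of the 37 genes and for 4.82% of all genes. DESeq2's Wald test called 1, Xbp1, and 0.192% of all genes. The interaction was negative, a smaller response in cKI mice, for 29 of the 37 genes, with a median of -0.06 against 0.00 over all genes. Xbp1 had the smallest p, with an interaction of -0.34 (SE 0.07, adjusted p = 0.21) and an unadjusted p of 0.00037. Pdia4 had -0.46 (SE 0.11, adjusted p = 0.41), Sdf2l1 -0.51 (SE 0.16, adjusted p = 0.76) and Manf -0.36 (SE 0.11, adjusted p = 0.72). By the edgeR test the response was therefore not shown to differ between genotypes. Xbp1, Pdia4, Sdf2l1 and Manf were called for the control response that the interaction subtracts, so negative values for them are partly built in. Averaged over genotypes, 5 of the 37 genes rose in inputs, against 0.818% of all genes: Dnajc3 by 0.22, Pdia4 by 0.29, Manf by 0.25, and Xbp1 and Herpud1 by 0.21 each on the log2 scale. At an unadjusted p under 0.05 there were 16 of 37, against 12.2% of all genes, and DESeq2's Wald test called 9, against 1.7% of all genes. The count of 5 was 0 with lane as a covariate, 8 without control replicate 1 at 1 h, 6 without naive control replicate 2, and 0 to 2 without any other input.

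In ribosome-bound RNA of control mice the 6 genes had fold changes of the same direction and similar size, with wider spread, and 0 of 37 passed by edgeR. The share of all genes called was 0.328%. In all, 11 of the 37 genes had an unadjusted p under 0.05, all of them higher, against 10.3% of all genes in either direction and 4.94% higher, and the median log2 fold change was 0.12 against 0.005 over all genes. DESeq2's Wald test called 7, which were Hspa5 and the 6 genes called in inputs, where it called 1.75% of all genes. Without the filter on low counts edgeR called 4, without control replicate 1 at 1 h it called 3, and without naive cKI replicate 1 or 2 it called 1. Pdia4 was at 68.8, 63.0 and 61.2 CPM in naive and 81.7, 115 and 89.2 CPM in conditioned control immunoprecipitates, with a log2 fold change of 0.56 (SE 0.12, adjusted p = 0.061). Manf was at 53.4, 51.0 and 53.3 CPM and 63.1, 85.1 and 75.0 CPM, 0.50 (SE 0.11, adjusted p = 0.068). Xbp1 was at 79.9, 71.3 and 77.0 CPM and 91.8, 107 and 101 CPM, 0.39 (SE 0.09, adjusted p = 0.099). None of these 3 genes overlapped between the groups, and replicate 2 at 1 h was the highest library for each.

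Hspa5 was at 482, 456 and 454 CPM in naive and 535, 749 and 640.2 CPM in conditioned control immunoprecipitates, 0.47 (SE 0.13, adjusted p = 0.16). Sdf2l1 was at 20.3, 17.8 and 18.9 CPM and 24.2, 35.5 and 28.5 CPM, 0.63 (SE 0.16, adjusted p = 0.13). Both ranged widely at 1 h, and neither overlapped its naive group. Dnajc3 had 0.39 (SE 0.08, adjusted p = 0.074) and Herpud1 0.38 (SE 0.10, adjusted p = 0.15). All control immunoprecipitates share lane 6, so these values are within 1 lane. In 13 of 37 genes every conditioned control immunoprecipitate was above every naive one, against 9.26% of all genes tested. The 13 added Creld2, Dnajb11, Dnajc10, Sec61a1, Ssr1 and Derl2 to the 7 genes named above.

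The cKI immunoprecipitates had a median log2 fold change of -0.01 after conditioning, and 0 of 37 genes were called by edgeR (0.0459% of all genes) or by DESeq2's Wald test (0.82%). Unadjusted p was under 0.05 for 5 of 37, a share close to the 12.8% of all genes. Xbp1 was at 83.9, 111 and 87.0 CPM in naive and 89.8, 85.9 and 88.6 CPM in conditioned cKI immunoprecipitates, -0.09. Pdia4 was at 71.7, 80.0 and 87.2 CPM and 81.5, 90.6 and 75.7 CPM, 0.06. Sdf2l1 was at 21.9, 33.4 and 27.3 CPM and 23.3, 28.6 and 22.1 CPM, -0.15. The groups overlapped in each, and naive cKI replicate 2, the immunoprecipitate farthest from its group, was the highest of the 6 libraries for Xbp1 and Sdf2l1. In 2 of 37 genes, Canx and Sel1l, an adaptor of the HRD1 complex, every conditioned library was above every naive one (8.63% of all genes). The interaction was called for 0 of 37 genes by edgeR (0.0131% of all genes) and by DESeq2's Wald test (0.558%), with an unadjusted p under 0.05 for 11 of 37 and for 9.34% of all genes. It was negative for 30 of 37, with a median of -0.18 against 0.00 over all genes. Sdf2l1 was lowest, at -0.78 (SE 0.22, adjusted p = 0.31). Manf had -0.56 (SE 0.15, adjusted p = 0.28) and Xbp1 -0.48 (SE 0.13, adjusted p = 0.28). These genes were called for the rise in control inputs of the same mice, so negative values for them are partly built in. The naive cKI immunoprecipitates were in lane 5, and all control ones were in lane 6. Of the conditioned cKI ones only replicate 1 was in lane 5. In cKI immunoprecipitates lane and training state are thus separated by that library alone. With lane as a covariate the Sdf2l1 interaction was -0.87 (SE 0.29). That of Manf was then -0.56 (SE 0.19) and that of Xbp1 -0.45 (SE 0.17). Averaged over genotypes, 0 of 37 were called in immunoprecipitates by edgeR (0.387% of all genes), with 9 at an unadjusted p under 0.05 (13% of all genes) and 2 called by DESeq2's Wald test (2.2% of all genes). Dentate granule cell markers moved with the cKI response. All 8 markers had negative values after conditioning in cKI immunoprecipitates and in the interaction, with medians of -1.02 and -1.35, and edgeR called 0 in either, with 1 and 0 at an unadjusted p under 0.05. In control immunoprecipitates 7 of the 8 were above 0 after conditioning, with a median of 0.30. Their summed level was 1131 to 1541 CPM in naive cKI immunoprecipitates, 447 to 1169 CPM in conditioned cKI, 447 to 1173 CPM in naive control and 430 to 1102 CPM in conditioned control ones, with 0 markers at 0. Their part in the members' values was not tested.

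Genotype moved few of the genes past the threshold. In naive immunoprecipitates 1 of 37 was called, Derl1, a channel subunit of degradation, against 3.7% of all genes tested. Derl1 was at 84.5, 74.5 and 78.5 CPM in naive control and 95.7, 94.0 and 90.4 CPM in naive cKI immunoprecipitates, without overlap, and its log2 fold change of 0.24 (SE 0.06, adjusted p = 0.049) was just inside the threshold. It was called in 3 of the 12 omissions of a library, and 0 genes were called with lane as a covariate. DESeq2's Wald test called 8 of 37 and 8.43% of all genes, and 14 of 37 had an unadjusted p under 0.05, against 22.3% of all genes. The median log2 fold change over the 37 genes was 0.11 against 0.00 over all genes, and 32 of 37 were above 0. Sdf2l1 had 0.54 (SE 0.16, adjusted p = 0.079), Manf 0.39 (SE 0.11, adjusted p = 0.057), Xbp1 0.30 (SE 0.09, adjusted p = 0.084), Edem2, a mannosidase that marks glycoproteins for degradation, 0.39 (SE 0.12, adjusted p = 0.086), and Sel1l -0.25 (SE 0.08, adjusted p = 0.082). In 14 of 37 genes every naive cKI immunoprecipitate was above every naive control one, against 12.7% of all genes tested.

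These naive control libraries also enter the conditioning contrast in controls, so the 2 contrasts are not independent. All naive cKI immunoprecipitates were in lane 5 and all naive control ones in lane 6, so lane and genotype cannot be told apart there. The dentate granule cell markers, whose summed levels are given above, had a median log2 fold change of 1.24 by genotype in naive immunoprecipitates, with 0 of 8 called by edgeR and 2 at an unadjusted p under 0.05. Among the other lists 3 of 15 immediate-early genes, which neuronal activity induces, were called lower, with a median of -0.59 and summed levels of 854 to 1180 CPM in naive cKI and 1276 to 1612 CPM in naive control immunoprecipitates. Of 10 oligodendrocyte markers 1 was called lower, with a median of -0.38 and sums of 266 to 341 CPM against 392 to 403 CPM. Of 5 choroid plexus markers tested 1 was called lower, with a median of -0.52, and of 8 excitatory neuron markers 1 was called higher and 1 lower, with a median of 0.00. All these lists had 0 markers at 0 in both groups. In the pyramidal, inhibitory neuron, astrocyte, microglia and vessel lists edgeR called 0, with 4, 1, 2, 0 and 0 markers at an unadjusted p under 0.05, against 22.3% of all genes. The part of these lists in the members' values was not tested.

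**Figure D3:**
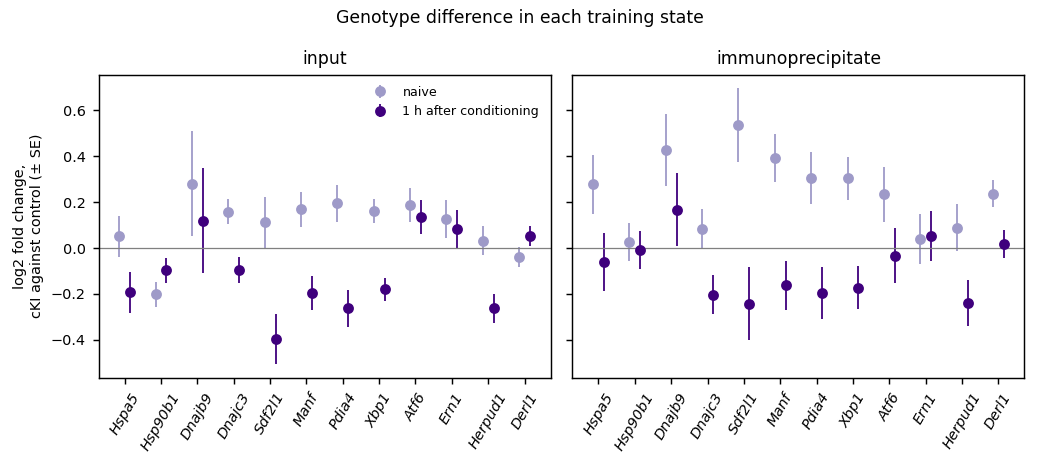
Log2 fold change (± SE, n = 3 mice against 3) of cKI against control in naive mice (light) and at 1 h (dark) for the 12 genes given library by library, in inputs (left) and immunoprecipitates (right). Only Derl1 in naive immunoprecipitates passed an adjusted p of 0.05 among the values plotted.

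At 1 h after conditioning 0 of 37 genes were called between genotypes in immunoprecipitates by edgeR (0.0591% of all genes) and by DESeq2's Wald test (0.308%), with an unadjusted p under 0.05 for 2 of 37, a share close to the 5.56% of all genes. In inputs 0 of 37 were called by edgeR in naive mice (0.859% of all genes) and 0 at 1 h (0.267%). Unadjusted p was under 0.05 for 9 and 8 of the 37, against 17.6% of all genes in naive mice and 8.98% at 1 h, and DESeq2's Wald test called 1 in each, against 2.91 and 0.946% of all genes. The plot of genotype differences shows Hspa5, Dnajc3, Sdf2l1, Manf, Pdia4, Xbp1 and Herpud1 above 0 in naive mice and below 0 at 1 h in both fractions. The control libraries in which these genes rose are the reference at both times. The change of sign is therefore partly built in and is no separate result. At 1 h in inputs Sdf2l1 had -0.39 (SE 0.11, adjusted p = 0.23) and Herpud1 -0.26 (SE 0.06, adjusted p = 0.14). In 6 of 37 genes every naive cKI input was above every naive control one, against 7.17% of all genes: Atf6, Derl2, Dnajc3, Pdia4, Spcs3 and Syvn1.

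Averaged over training states, Hsp90b1 was lower in cKI inputs, the only 1 of 37 called there, against 3.15% of all genes. It was at 326, 339 and 312 CPM in naive cKI and 349, 367 and 346 CPM in conditioned cKI inputs, against 387, 399 and 363 CPM and 355, 398 and 395 CPM in controls. All naive cKI libraries were below all control ones, and the conditioned groups overlapped. The log2 fold change was -0.15 (SE 0.04, adjusted p = 0.049). At an unadjusted p under 0.05 there were 8 of 37, against 20.5% of all genes, and DESeq2's Wald test called 2, against 5.49% of all genes. Hsp90b1 was called in 4 of the 12 omissions, and with lane as a covariate 0 genes were called. Oligodendrocyte markers were lower in the same comparison, 8 of 10 with a median of -0.31, summing to 3957 to 4601 CPM in naive and 3758 to 3928 CPM in conditioned cKI inputs, and 3 of 10 astrocyte markers were lower with a median of -0.11. Astrocyte markers summed to 4880 to 5038 CPM in naive cKI, 4915 to 4970 CPM in conditioned cKI, 4585 to 5242 CPM in naive control and 4925 to 5225 CPM in conditioned control inputs, with 0 of 10 at 0. Their part in the Hsp90b1 difference was not tested. P4hb, the prototype disulfide isomerase, had -0.11 (SE 0.03, adjusted p = 0.069). In immunoprecipitates averaged over training states 0 of 37 were called by edgeR (1.69% of all genes) and by DESeq2's Wald test (5.11%). There 6 of 37 had an unadjusted p under 0.05, against 18.5% of all genes. Hsp90b1 was at 455 to 547 CPM in cKI and 456 to 557 CPM in control libraries.

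Most of the genes were higher in ribosome-bound RNA of excitatory neurons than in whole tissue. In the immunoprecipitate against input comparison of all 12 mice, 28 of 37 were higher and 5 lower, against 42.8% of all genes called higher and 43.1% lower, with a median of 0.35 over the 37 genes and -0.01 over all genes. By library totals in place of TMM scaling the median of all genes shifted to -0.31 and that of the 37 genes to 0.04, 15 were called higher and 14 lower, and the share of higher calls among all calls went from 49.8 to 30.0%. Directions given here are therefore relative to the bulk of genes under TMM scaling. With library totals Canx, Ssr1, Xbp1, Spcs2, Dnajc10, Ssr4 and Sec61a1, all called higher, had values below 0. TMM assumes that most genes do not differ between fractions.

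**Figure D4:**
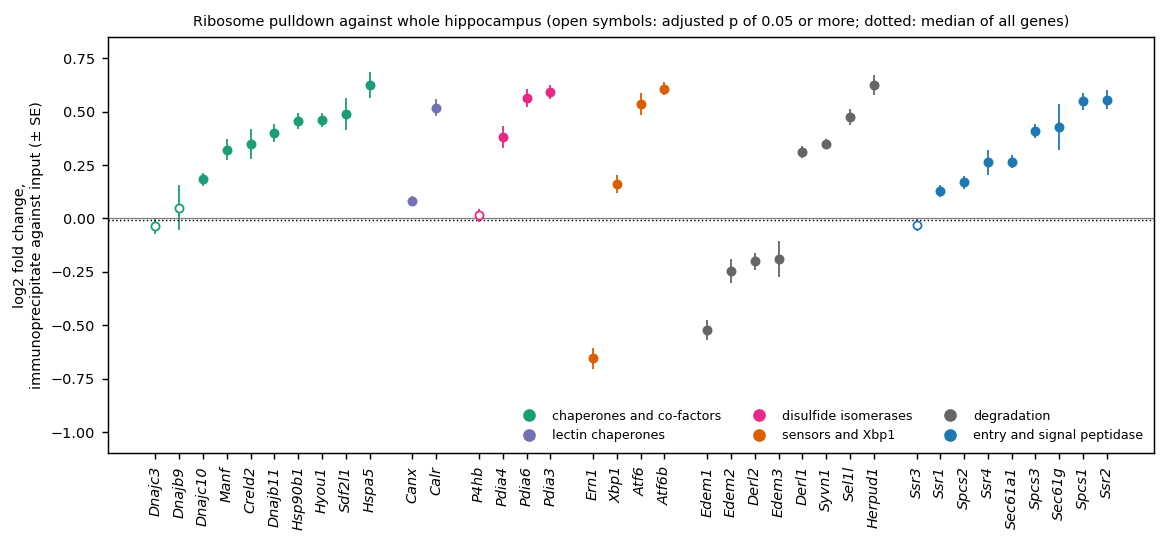
Log2 fold change (± SE) of immunoprecipitate against input for the 37 genes by role, from 12 input and 12 immunoprecipitate libraries under TMM scaling, with filled symbols for an adjusted p under 0.05. 28 genes lie above 0 and 5 below with filled symbols, and 7 of the former (Canx, Ssr1, Xbp1, Spcs2, Dnajc10, Ssr4, Sec61a1) change sign when library totals set the scale.

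Among chaperones and co-factors 8 of 10 were higher and 0 lower. Hspa5 was at 307, 359 and 492 CPM over the 12 inputs (lowest, median, highest) and 454, 563 and 749 CPM over the immunoprecipitates, above the input in 12 of 12 mice, with a log2 fold change of 0.62 (SE 0.06, adjusted p = 3.5e-09). Hyou1 had 0.46, Hsp90b1 0.46, Sdf2l1 0.49 and Dnajb11, a co-chaperone of HSPA5, 0.40. The other two, Dnajb9 and Dnajc3, had 0.05 and -0.04 and were not called. Both lectin chaperones were higher, Calr by 0.52 and Canx by 0.08, of which Canx turned to -0.23 with library totals. Of the disulfide isomerases, Pdia3, Pdia6 and Pdia4 were higher, at 0.59, 0.56 and 0.38, and P4hb had 0.01.

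The sensors split. Ern1 was at 14.1, 16.2 and 18.5 CPM over inputs and 8.42, 10.4 and 11.6 CPM over immunoprecipitates, without overlap between the fractions and below the input in 12 of 12 mice, with a log2 fold change of -0.65 (SE 0.05, adjusted p = 9.3e-12). Atf6 was at 77.1, 97.5 and 106 CPM and 118, 137 and 170.4 CPM, above the input in 12 of 12 mice, 0.54 (SE 0.05, adjusted p = 1.9e-09). Its relative Atf6b had 0.61. Ern1 was thus the lowest of the 37 genes by this ratio, and both Atf6 genes were among the highest. Xbp1 had 0.16 and turned to -0.15 with library totals.

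Of 8 degradation genes 4 were higher and 4 lower, near the shares of all genes, 42.8% higher and 43.1% lower. Herpud1 was at 42.2, 46.6 and 61.8 CPM in inputs and 61.7, 72.6 and 96.1 CPM in immunoprecipitates, 0.63 (SE 0.05, adjusted p = 1.1e-11), and the parts of the HRD1 ligase were also higher, Sel1l at 0.48, Syvn1 at 0.35 and Derl1 at 0.31. All 3 mannosidase-like EDEM genes were lower: Edem1 at -0.52, Edem2 at -0.25 and Edem3 at -0.19. Edem1 was at 21.1, 24.6 and 28.1 CPM in inputs and 15.5, 16.9 and 20.9 CPM in immunoprecipitates, which did not overlap. Derl2 was lower as well, -0.20. Edem1 and Derl2 were below the input in 12 of 12 mice, Edem2 above it in 1 and Edem3 above it in 2 of 12.

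Of the genes of entry and signal peptide removal 8 of 9 were higher. Ssr2 and Ssr4 of the translocon-associated complex had 0.56 and 0.26, and Ssr1 and Ssr3 of the same complex 0.13 and -0.03. Ssr3 was the member not called. Signal peptidase subunits Spcs1, Spcs3 and Spcs2 had 0.55, 0.41 and 0.17. The channel subunits Sec61a1 and Sec61g had 0.27 and 0.43. Sec61g was read at 1.18 to 2.31 CPM in inputs, and how reads shared with near-identical copies were counted is not given in the sources used here.

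The ratio of immunoprecipitate to input did not pass a test of genotype for any member: 0 of 37 by edgeR, against 0.0229% of all genes, and 0 by DESeq2's Wald test. The 9 of 37 with an unadjusted p under 0.05 were all higher in cKI, against 15.6% of all genes in either direction and 9.72% higher. The median difference was 0.12 against 0.02 over all genes, and 30 of 37 were above 0. Spcs1 had 0.28 (SE 0.08, adjusted p = 0.22) and P4hb 0.18 (SE 0.06, adjusted p = 0.24). By training state 0 of 37 were called by edgeR (0.00573% of all genes) and by DESeq2's Wald test, and 0 had an unadjusted p under 0.05 (4.13% of all genes).

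Dnajb9 (ERdj4), a co-chaperone that IRE1α and XBP1 induce, differed among mice of 1 group more than between groups. Control inputs were at 37.7, 42.5 and 38.2 CPM when naive and 52.4, 38.0 and 40.4 CPM at 1 h, and cKI inputs at 53.0, 32.3 and 55.7 CPM and 33.7, 53.3 and 53.2 CPM. The immunoprecipitates of the same mice, in the same order, were at 37.3, 40.5 and 36.8, 53.1, 39.9 and 40.4, 56.3, 43.0 and 55.1 and 38.6, 54.1 and 56.4 CPM. A mouse high in its input was high in its immunoprecipitate: 5 mice lay between 52.4 and 55.7 CPM in inputs and between 53.1 and 56.4 CPM in immunoprecipitates, and the other mice at 32.3 to 42.5 CPM and 36.8 to 43.0 CPM. The high mice were replicate 1 of the conditioned controls, naive cKI replicates 1 and 3 and conditioned cKI replicates 2 and 3, so each of these 3 groups held both levels. With that spread the conditioning contrast in control inputs was 0.16 (SE 0.23, adjusted p = 0.8), and in naive mice the genotype contrast was 0.43 (SE 0.16, adjusted p = 0.14) in immunoprecipitates. This pattern was seen in the values and not tested.

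**Figure D5:**
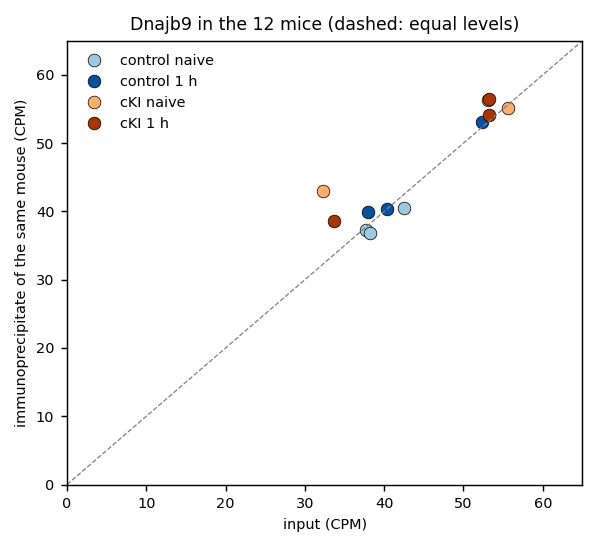
Dnajb9 level of each of the 12 mice in its input (x axis, CPM) and its immunoprecipitate (y axis, CPM), coloured by group, with the line of equal levels. 5 mice from 3 groups lie at 52 CPM or more on both axes, and the other mice lie at 43 CPM or less.

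Other genes of the same pathways were taken from 6 lists with 116 genes, of which 115 had a row. After conditioning 0 of those tested were called by edgeR within either genotype in either fraction. Averaged over genotypes 1 was called in inputs, Fkbp14, a prolyl isomerase, at 0.21, and 0 in immunoprecipitates. The list medians in control inputs were 0.02 (30 other folding genes), 0.01 (20 glycosylation and lectin cycle genes), -0.01 (20 other degradation genes), -0.05 (20 other translocation genes), -0.01 (9 regulators of the response) and 0.00 (14 genes of the PERK arm). Unadjusted p was under 0.05 for 19 of 113 tested in control inputs, 7 of 113 in cKI inputs, 10 of 111 in control and 12 of 111 in cKI immunoprecipitates. Over all genes tested the shares were 11.7 and 5.27% in inputs and 10.3 and 12.8% in immunoprecipitates, in the same order. DESeq2's Wald test called 1 of them, Dnajc1, in control inputs, where it called 1.78% of all genes, and 0 in the other three. By genotype, calls were also made in the PERK arm. In inputs averaged over training states 5 of 14 were lower and 0 higher, against 3.15% of all genes called in either direction. They were Trib3, a pseudokinase, at -1.33, Nupr1, a stress regulator, at -0.66, Chac1, a glutathione-degrading enzyme, at -0.64, and Atf4 and Asns, which encodes asparagine synthetase, at -0.33 and -0.19. Asns, and Dnajc1 above, were named after their values were seen. In immunoprecipitates edgeR called Atf4 alone of 13 tested, lower at -0.43, against 1.69% of all genes. DESeq2's Wald test also called Chac1 there. Lanes were uneven between genotypes, with all cKI inputs in lane 4, and oligodendrocyte markers were lower in cKI inputs, as given above. The cause of these genotype differences was not tested. Of the other lists 1 gene was called by genotype averaged over training states in inputs, Man1b1 of the lectin cycle, at 0.11, and 0 in immunoprecipitates. DESeq2's Wald test called 14 of 113 pathway genes in inputs and 5 of 111 in immunoprecipitates in that contrast, where it called 5.49 and 5.11% of all genes, against 6 and 1 by edgeR.

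By fraction and under TMM scaling, each of the other lists had more genes called higher in immunoprecipitates than lower. Of 20 other degradation genes 18 were higher and 0 lower, led by Ube2g2 (0.64), Vcp (0.58) and Ufd1l (0.54 on the log2 scale), a conjugating enzyme and parts of the extraction machine. Of 20 other translocation genes 18 were higher and 2 lower, Tram2 (-3.08) and Tram1 (-0.40). Of 30 other folding genes 18 were higher and 9 lower, from Fkbp10, a prolyl isomerase of collagen folding, at -3.86, and Ppic at -1.13, to Cnpy2 at 0.54. Of 20 glycosylation genes 14 were higher and 5 lower, with Magt1 at -2.30 and its paralogue Tusc3 at 0.63, both subunits of the oligosaccharyltransferase. Of 9 regulators 6 were higher and 2 lower, with Wfs1 at 1.76 and Creb3l1 at 1.03. Of the 14 genes of the PERK arm 9 were higher and 2 lower, with Cebpb at 1.14, Sesn2 at 0.88 and Asns at 0.87, and Nupr1 at -2.90 and Atf5 at -0.30. These shares read against 42.8% higher and 43.1% lower among all genes. With library totals they changed. Then 7 degradation genes were higher and 7 lower, 13 and 6 of the translocation genes, 6 and 17 of the folding genes, 6 and 10 of the glycosylation genes, 4 and 4 of the regulators and 5 and 7 of the PERK arm, so that the translocation list alone kept more genes called higher than lower.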

How the data were processed

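RNA was measured in 24 libraries from 12 mice, 3 a group, selected for poly(A) and made with a directional kit per the labels' protocols. The authors deposited raw counts per gene in 1 table. Per the submitters' processing notes the tools included cutadapt, Bowtie and DESeq2, with no role stated. How reads were counted, on which genome build and with which strand setting is not given in the sources used here, so reads of overlapping or antisense genes may be shared. No sample column was left out.

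Counts were fitted with edgeR 4.0.16 (limma 3.58.1, R 4.3.3): filterByExpr, TMM scaling and robust quasi-likelihood tests, adjusted over all genes tested (17232 in inputs, 15238 in immunoprecipitates, 17453 in both). Each fraction's 12 libraries shared 1 fit with a mean for each group, and the fraction contrasts used all 24. A gene is called at an adjusted p under 0.05, and SE stands for the standard error of the log2 value. One count was 0.035 CPM at the lowest input depth. The scripts were tested on simulated data.

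Alternatives were DESeq2 size factors, DESeq2's Wald test (1.42.0), no filter, library totals, a replicate block, lane as a covariate, and leaving out each library or mouse. Input and immunoprecipitate of a mouse are paired by the labels (correlation of deviations -0.05 to 0.41, median 0.13 over 12 mice). Replicate numbers were not taken to pair mice across groups. Same-number correlations were -0.18 to 0.12 in inputs (median -0.03, against 0.004 for different numbers). In immunoprecipitates they were -0.25 to 0.47 (median 0.08, against -0.06), so a shared factor by number is not excluded there.

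Every member is described. Those called by conditioning or genotype, and Hspa5, Hsp90b1, Xbp1, Atf6, Ern1, Dnajb9, Herpud1 and Sdf2l1, are given by library, and pathway lists by up to 3 called genes a direction. Atf4 and Asns are named beyond that limit since 5 were called. The members and lists were chosen with earlier results of these data known, and so support no count by themselves.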

Additional observations from a re-analysis of the deposited data

How the results depend on the processing

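With lane as a covariate the count of called genes fell to 0 in 4 contrasts: conditioning in control inputs (6), conditioning averaged over genotypes in inputs (5), genotype in naive immunoprecipitates (1) and genotype averaged over training states in inputs (1). With DESeq2's Wald test it was 7 in place of 0 for conditioning in control immunoprecipitates, 2 in place of 0 for the same averaged over genotypes, 9 in place of 5 for that average in inputs (1.7% of all genes), and 8 in place of 1 for genotype in naive immunoprecipitates. It was also 2 in place of 1 for genotype averaged over training states in inputs (5.49% of all genes), and 1 in place of 0 for genotype in inputs of naive mice, for genotype in inputs at 1 h and for the interaction in inputs. Without the low-count filter it was 4 for conditioning in control immunoprecipitates. The cause of these shifts was not tested.

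With the replicate number as a replicate block, 7 genes were called for conditioning in control inputs (6 without it), 1 for conditioning in control immunoprecipitates, 3 for genotype in naive immunoprecipitates and 0 for genotype averaged over training states in inputs, and the other counts stayed within 1.5 times. The numbers were not taken to pair mice. The mouse as a replicate block left 33 calls between fractions, and 0 for both tests of the ratio.

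Leaving out 1 library at a time gave 1 to 7 calls for conditioning in control inputs, 0 to 8 for its average over genotypes, and in immunoprecipitates 0 to 3 and 0 to 1. It gave 0 to 3 for genotype in inputs at 1 h and averaged over training states, 0 to 2 for genotype in naive immunoprecipitates and 0 to 1 for the interaction in inputs. The change in calls between fractions stayed within 1.5 times in every omission of a mouse.

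Library totals turned 7 fraction values below 0: Dnajc10 to -0.12, Ssr1 to -0.18, Ssr4 to -0.043, Sec61a1 to -0.041, Xbp1 to -0.15, Canx to -0.23 and Spcs2 to -0.14. DESeq2 size factors moved the median of all genes to -0.08, with 27 of 37 genes higher and 7 lower. Values under all alternatives were tallied for the members called in each contrast. For conditioning in controls, Hspa5 and the genes called in control inputs were tallied in both fractions. Of these values 785 kept direction and side of the threshold, 105 lost and 21 gained a call, and 7 reversed. Most of them belong to the comparison of fractions, so the tally does not show how stable the conditioning and genotype calls were. Sec61g, at 1.18 to 2.96 CPM, and Ern1 are the members most limited by depth.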
